A study of Mus musculus with 2 samples.

Results

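Interferon-stimulated genes were described in RNA from mouse regulatory T cells, the CD4 T cells that restrain immune responses under the transcription factor Foxp3. The set was 37 genes chosen by gene symbol from the GENCODE M21 gene tables, and all 37 symbols were found among 55536 genes. The rule used no measured value, but earlier results of these data were known when the members were chosen. Polyadenylated RNA of primary regulatory T cells from a 9-week-old adult male mouse of strain Foxp3GFP-DTRCD4CreERT2R26tdTomato had been sequenced as 2 libraries. The strain name carries a reporter with a diphtheria toxin receptor at Foxp3, a tamoxifen-inducible Cre at CD4 and tdTomato at R26, and the labels name no treatment. Both libraries belong to biological replicate 1 and are technical replicates 1 and 2, so there was 1 group and no condition to compare. Expected counts summed to 20891069 and 18571065 over genes, and gene coordinates are on mm10. Nothing in the labels says that the libraries came from separate mice or cultures, and every p-value below measures only counting error between these 2 libraries. The label was checked against cell type markers: 8 of 8 regulatory T cell markers had at least 10 TPM on average (a transcript level scaled for length and depth), with Foxp3 at 88.6 and 83.6 TPM.

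Type I interferons bind the receptor pair Ifnar1 and Ifnar2, whose kinases Jak1 and Tyk2 phosphorylate Stat2. Stat2 and Irf9 are parts of a complex that binds the interferon-stimulated response element, or ISRE, near the start of target genes, while interferon-gamma acts through the gamma-activated sequence, or GAS. The targets include proteins that bind or cut viral RNA, sense nucleic acids, limit nucleotide pools, attach the ubiquitin-like protein Isg15, or hold back budding virus, and many have a low level in cells without added interferon.

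The sequences before the start of 8 of the genes are shown first, because an exact match to the core of the ISRE was found in some and not in others. Each is the 250 bases before the gene's start in RefSeq on GRCm38.p6, written along the gene's own strand, with the ISRE core (GAAA, any 2 bases, GAAA) in capitals where it occurs. A match on the other strand is seen as TTTC, any 2 bases, TTTC, and capitals longer than 10 bases are overlapping matches. Sp100, Samhd1 and Bst2 are among the 6 highest members that the table of starts holds and Oas1g is its lowest, while Isg15, Ifit3, Ifit3b and Oas1a were chosen after their values were seen, to show repeated matches and close copies.

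Isg15, chr4:156200819-156201068, minus strand: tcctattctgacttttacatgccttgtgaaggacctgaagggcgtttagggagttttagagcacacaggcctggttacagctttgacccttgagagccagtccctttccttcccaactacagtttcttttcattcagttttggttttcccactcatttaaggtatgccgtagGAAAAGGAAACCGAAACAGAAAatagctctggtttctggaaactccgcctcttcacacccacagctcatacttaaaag
Bst2, chr8:71537473-71537722, minus strand: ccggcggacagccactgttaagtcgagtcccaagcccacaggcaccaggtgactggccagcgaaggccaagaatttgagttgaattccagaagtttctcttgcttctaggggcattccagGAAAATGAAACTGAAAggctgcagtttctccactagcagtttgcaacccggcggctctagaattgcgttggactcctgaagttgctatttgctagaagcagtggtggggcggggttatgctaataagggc
Ifit3, chr19:34583279-34583528, plus strand: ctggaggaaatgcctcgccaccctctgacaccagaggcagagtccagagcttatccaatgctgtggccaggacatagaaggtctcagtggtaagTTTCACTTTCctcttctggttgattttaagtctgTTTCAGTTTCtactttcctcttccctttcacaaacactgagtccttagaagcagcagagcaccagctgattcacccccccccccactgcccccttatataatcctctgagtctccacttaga
Ifit3b, chr19:34607707-34607956, plus strand: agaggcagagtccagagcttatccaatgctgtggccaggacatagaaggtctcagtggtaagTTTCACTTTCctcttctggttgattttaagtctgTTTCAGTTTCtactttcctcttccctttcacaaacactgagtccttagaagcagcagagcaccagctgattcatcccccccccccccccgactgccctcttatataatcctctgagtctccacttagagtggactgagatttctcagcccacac
Oas1a, chr5:120907526-120907775, minus strand: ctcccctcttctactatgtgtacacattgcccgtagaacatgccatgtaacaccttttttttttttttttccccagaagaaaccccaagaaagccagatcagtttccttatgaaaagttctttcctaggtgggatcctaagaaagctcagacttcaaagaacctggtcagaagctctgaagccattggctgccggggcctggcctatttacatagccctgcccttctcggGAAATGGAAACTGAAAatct
Oas1g, chr5:120887614-120887863, minus strand: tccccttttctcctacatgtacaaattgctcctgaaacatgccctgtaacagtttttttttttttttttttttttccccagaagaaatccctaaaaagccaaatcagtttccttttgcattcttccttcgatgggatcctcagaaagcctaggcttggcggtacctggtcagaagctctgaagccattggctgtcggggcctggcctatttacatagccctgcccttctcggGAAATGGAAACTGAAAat
Samhd1, chr2:157135097-157135346, minus strand: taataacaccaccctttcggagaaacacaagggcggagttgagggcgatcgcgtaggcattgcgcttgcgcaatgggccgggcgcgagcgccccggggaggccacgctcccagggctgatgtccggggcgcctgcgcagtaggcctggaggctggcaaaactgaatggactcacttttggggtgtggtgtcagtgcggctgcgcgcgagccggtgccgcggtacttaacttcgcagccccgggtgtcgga
Sp100, chr1:85649738-85649987, plus strand: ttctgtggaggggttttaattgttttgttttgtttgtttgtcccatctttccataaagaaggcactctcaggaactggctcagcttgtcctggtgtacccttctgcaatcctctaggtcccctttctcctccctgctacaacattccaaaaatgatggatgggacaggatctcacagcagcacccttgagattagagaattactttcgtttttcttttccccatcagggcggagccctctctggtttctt

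The RefSeq table held a start for 26 of the 37 genes. Ifi27l2a, Ifi27, Mx1, Mx2, Oas1b, Oas2, Usp18, Zbp1, Rtp4, Dhx58 and Parp14 were not matched. In windows of 300 bases, from 250 before to 50 after the start, the ISRE core was found on either strand in 14 of the 26 genes (53.8%), against 3.99% of the 27025 genes of the whole table. The GAS core (TTC, any 3 bases, GAA), whose letters read the same on both strands, was found on either strand in 7 of the 26 (26.9%), against 9.55% of the table's genes. A match is a description of letters and not a measured binding site. A window without an exact match does not show that its gene lacks an ISRE.

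Isg15, the ubiquitin-like modifier, carried 3 overlapping ISRE cores, whose first bases lay at -78, -72 and -66 from the start. Bst2, or tetherin, which holds budding virus at the cell surface, carried 2 overlapping cores at -130 and -124, and a GAS core at -136 ran into them. Ifit1, Ifit3 and Ifit3b each had 2 separate cores on the other strand, at -104 and -85, at -156 and -122, and at -188 and -154. In Oas1a and Oas1g a pair of overlapping cores ended just before the start (-20 and -14 in Oas1a, -18 and -12 in Oas1g). Ifit3 and Ifit3b had 216 identical bases of 218 that aligned in the printed windows, with 64 gap positions. Oas1a and Oas1g had 86.9% identity over 244 aligned bases. The printed windows of Samhd1 and Sp100 held no ISRE core, while that of Samhd1 held a GAS core at -235. Of the other 4 genes that were highest or lowest in the table, Ifi35, Lgals3bp, Isg20 and Ifi44, none held an ISRE core.

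**Figure D1:**
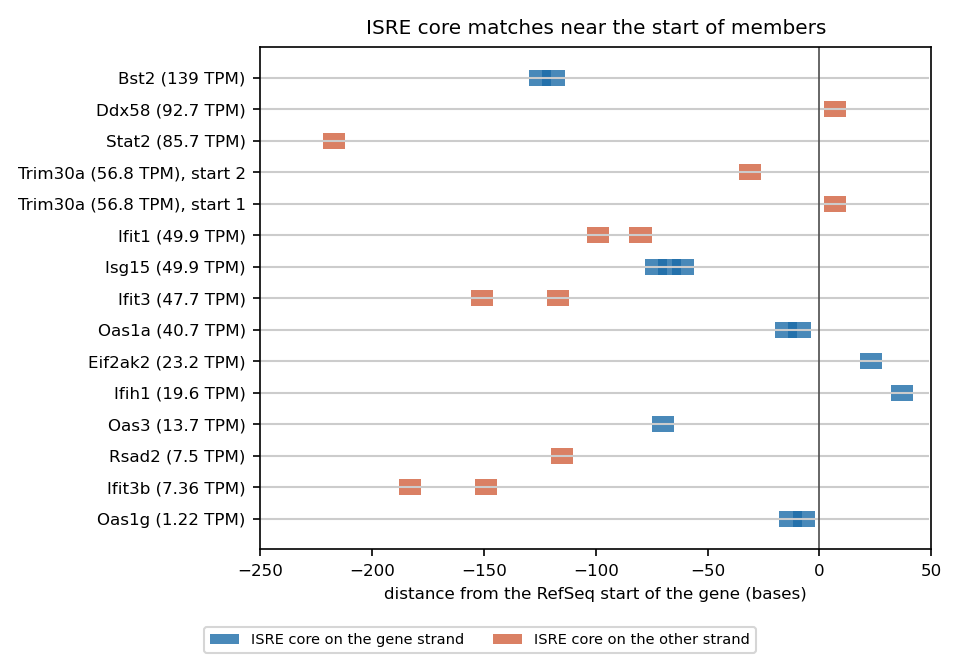
Position of each ISRE core match (coloured block, 10 bases long) in bases from the RefSeq start, marked at 0, for the 14 genes with a match, ordered by mean TPM of 2 libraries, with Trim30a shown at 2 starts. Most matches lie before the start, and those of Ddx58, Eif2ak2, Ifih1 and a Trim30a start lie after it.

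Levels of genes with and without an exact core match overlapped widely. The 14 genes with a match had a median of 44.2 TPM and ranged from 1.22 (Oas1g) to 139 (Bst2) TPM. The 12 matched genes without one had a median of 63.2 TPM and ranged from 3.09 (Ifi44) to 793 (Sp100) TPM. Close copies with similar upstream windows stood apart in level: Ifit3 had 41.8 and 53.7 TPM, while Ifit3b had 6.5 and 8.21 TPM. Oas1a had 39.6 and 41.9 TPM, while Oas1g had 0.9 and 1.54 TPM. The levels of these pairs carry the uncertainty of shared reads given further on.

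Of the 37 genes, 36 were detected, at 1 TPM or more in both libraries, beside 23.4% of all genes and 47.5% of 22028 protein-coding genes. A mean of at least 10 TPM was reached by 29 of them (33.8% of protein-coding genes) and a mean of at least 100 TPM by 10 (7.89% of protein-coding genes). Their median mean level was 47.7 TPM, against 19.1 TPM for all detected genes and 25.5 TPM for detected protein-coding genes. Summed over members, TPM was 5064 in the first library and 5061 in the other, and their expected counts were 0.459% and 0.446% of all gene counts. In bulk RNA a level that comes from few cells and a low level in every cell cannot be told apart.

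**Figure D2:**
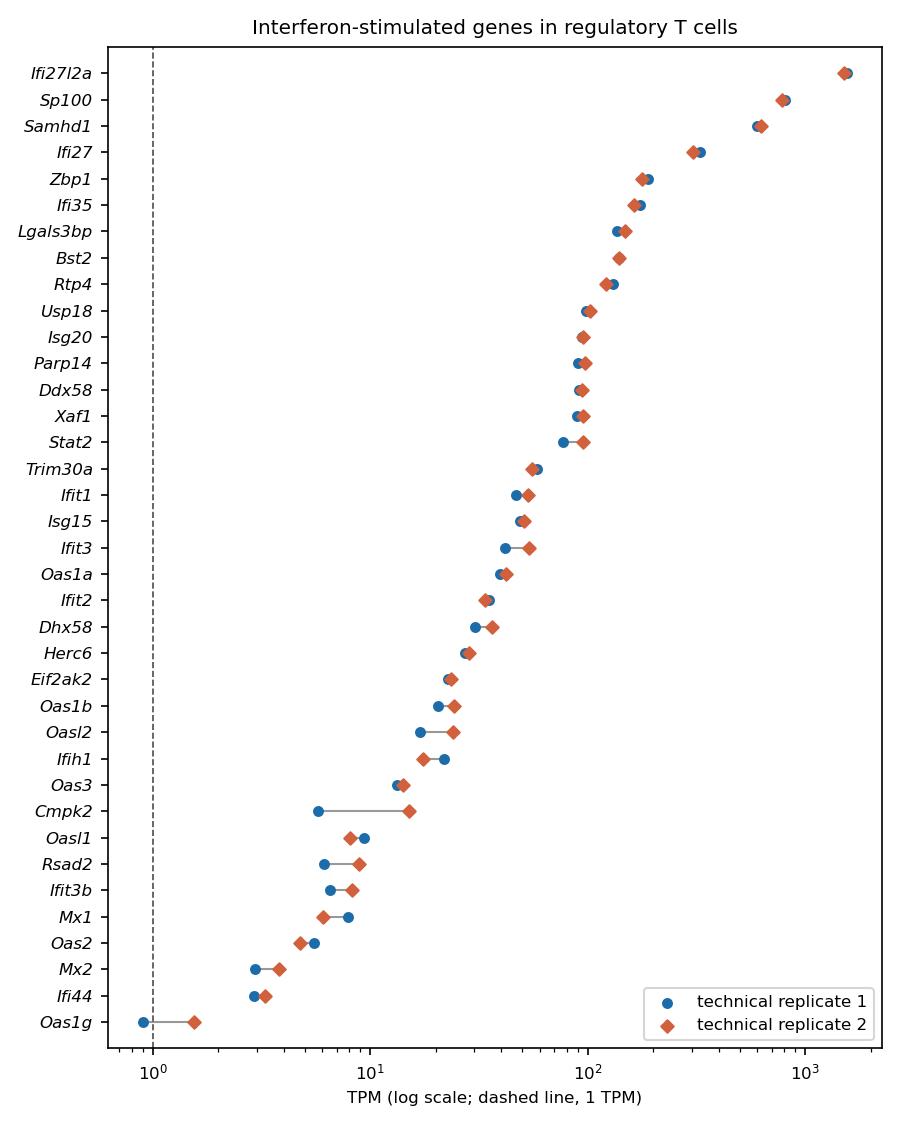
TPM on a log scale of the 37 interferon-stimulated genes in technical replicate 1 (circles) and technical replicate 2 (diamonds), joined by a line, with 1 TPM dashed. Levels run from Oas1g at the bottom (0.9 and 1.54 TPM) to Ifi27l2a at the top (1551 and 1503 TPM), and the widest gap is that of Cmpk2.

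The summed level rested on few genes. Ifi27l2a, a small hydrophobic protein of the Ifi27 family (chr12:103442167-103443680, minus strand), had 1551 and 1503 TPM in technical replicates 1 and 2 and ranked 76th of all genes. It alone made up 30.6% and 29.7% of the summed level. Its neighbour and relative Ifi27 (chr12:103434211-103440239, plus strand) had 328 and 304 TPM. Sp100, a scaffold of nuclear bodies, had 804 and 782 TPM. Samhd1, a hydrolase of deoxynucleotides that starves reverse transcription in non-cycling cells, had 602 and 628 TPM. These 4 genes held 64.9% and 63.6% of the summed level, and no level of one overlapped that of another.

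Among the nucleic acid sensors, Zbp1, which binds Z-form nucleic acid and can trigger necroptosis, was highest at 189 and 178 TPM. Ddx58, or RIG-I, which senses viral RNA ends, had 91.3 and 94.2 TPM. Dhx58, or LGP2, a regulator of the other RNA sensors, had 30.3 and 36.4 TPM. Ifih1, or MDA5, which senses long double-stranded RNA, had 21.8 and 17.5 TPM, and Eif2ak2, or PKR, which halts translation on double-stranded RNA, had 22.9 and 23.6 TPM. Ddx58 therefore lay above the other helicases in both libraries. The TPM values of Ifih1 lay below those of Eif2ak2, though their means of 19.6 and 23.2 TPM were close. The authors' credibility bounds belong to a posterior mean TPM, deposited beside the TPM printed here, and need not hold the printed value. For Ifi27l2a they ran from 1367 to 1424 in technical replicate 1, below its TPM of 1551. In technical replicate 1 these bounds overlapped, from 17.4 to 22.3 for Ifih1 and from 18.6 to 23.6 for Eif2ak2. In technical replicate 2 they did not, from 13.5 to 18.5 and from 18.7 to 24.1.

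The Isg15 system was measured at intermediate levels. Isg15 itself had 48.8 and 51.0 TPM. Usp18, which removes Isg15 from proteins and also restrains the type I interferon receptor, had 97.9 and 102 TPM, so the remover stood above the modifier in both libraries. Herc6, the mouse ligase that attaches Isg15, had 27.2 and 28.5 TPM.

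The effectors most often used as markers of an acute interferon response had low to intermediate levels. The 4 IFIT genes, whose proteins bind foreign RNA, lie together on chromosome 19 from Ifit2 (chr19:34550694-34576419) to Ifit1 (chr19:34640871-34650009). Ifit1 had 46.6 and 53.2 TPM, Ifit2 had 35.1 and 33.5 TPM, and Ifit3b was lowest of the family as given above. The levels of Ifit1 and Ifit3 overlapped. Rsad2, or viperin, which makes a chain-terminating nucleotide, had 6.10 and 8.89 TPM, and Ifi44 had 2.91 and 3.28 TPM. Of the dynamin-like GTPases Mx1 and Mx2, from a family known for blocking virus replication, Mx1 had 7.90 and 6.07 TPM. Mx2 had 2.96 and 3.82 TPM.

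The oligoadenylate synthetase family spanned 1.22 to 40.7 TPM in its means. Its active enzymes make the signal that activates the ribonuclease RNase L on double-stranded RNA. Oas1a was highest, Oas1b had 20.4 and 24.2 TPM, and Oasl2 had 16.8 and 24.1 TPM, so Oas1b and Oasl2 overlapped. Oas3 had 13.2 and 14.1 TPM, Oasl1, a repressor of Irf7 translation, had 9.34 and 8.07 TPM, and Oas2 had 5.54 and 4.77 TPM. Oas1g was the only member under 1 TPM in a library, at 13.4 and 14.8 expected counts. The authors' posterior standard deviation of its count was 43.9% and 28.0% of the count. The TPM values of Oas1g lay below those of Ifi44, the next member in the order. In technical replicate 2 the credibility bounds on posterior mean TPM overlapped, from 0.870 to 2.69 for Oas1g and from 2.52 to 5.51 for Ifi44. In technical replicate 1 they did not, from 0.443 to 1.89 and from 2.51 to 4.57.

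The remaining members had middle to high levels. Ifi35, which pairs with Nmi in immune signalling, had 173 and 164 TPM, Bst2 had 140 and 139 TPM, and Lgals3bp, a secreted galectin-binding glycoprotein, had 136 and 148 TPM. Rtp4, a chaperone of membrane receptors, had 130 and 121 TPM. Isg20, a ribonuclease, had 94.4 and 95.1 TPM, Xaf1, a promoter of apoptosis, had 89.0 and 95.03 TPM, and Parp14, an ADP-ribosyltransferase, had 89.9 and 96.6 TPM. Among these 3 the ranges overlapped, and so did those of Bst2 and Lgals3bp. Stat2 had 76.7 and 94.6 TPM and Trim30a, a tripartite-motif protein, had 58.5 and 55.2 TPM. Across the 37 genes the order of levels was close between the libraries (Spearman's rho 0.989 across genes, which are not independent replicates and share the same libraries).

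The counts of the 2 libraries were then compared for every gene by an exact binomial test, two-sided and scaled by TMM, with Benjamini-Hochberg adjustment over 16553 genes. An adjusted p of at most 0.05 was reached by 13 of the 37 genes, 8 higher and 5 lower in technical replicate 2. The background was 34.7% of all genes tested (21.6% higher and 13.0% lower), and 48.9% of the 9901 genes that averaged 100 counts or more, so the members' share of 35.1% was near that of all genes and below that of the well-counted genes. The median log2 ratio of technical replicate 2 over 1 was 0.06 over the members and 0.02 over all genes tested. Of the 37 log2 ratios, 29 lay within 0.25 of 0. The split between directions moved with the scaling: 62.4% of all calls were higher under TMM. This share was 54.1% under the size factors of DESeq2, where 7 members were called higher and 9 lower. Scaling by total counts gave 47.9%, with 6 members higher and 10 lower.

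Cmpk2, a mitochondrial kinase that makes CTP precursors, stood apart. It had 5.76 TPM in the library of technical replicate 1 and 15.1 TPM in that of technical replicate 2, from 221 and 502 expected counts. Its log2 ratio was 1.42 ± 0.12 (counting SE), with an adjusted p of 1.42e-35 by the exact binomial test. This was the only member outside the range that held the central 95% of genes that averaged 100 counts or more, from -0.44 to 1.11, and 24 of the 9901 such genes (0.242%) had a ratio as high. In the older GENCODE M4 count tables Cmpk2 had 78 and 209 counts. Cmpk2 lies at chr12:26469204-26479837 on the plus strand, and Rsad2 lies beside it on the other strand at chr12:26442746-26456452. Rsad2 had 314 and 301 expected counts and a log2 ratio of 0.17 ± 0.12, which was not called (adjusted p of 0.279 by the exact binomial test). The difference between the ratios of these neighbours was not tested.

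The other called differences were small. Oasl2 had a log2 ratio of 0.43, Ifit3 of 0.36, Stat2 of 0.27, Dhx58 of 0.24, Ifit1 of 0.18, Parp14 of 0.10 and Samhd1 of 0.06. On the lower side Ifih1 had a log2 ratio of -0.25, Herc6 of -0.15, Trim30a of -0.14, Rtp4 of -0.13 and Ifi27 of -0.11. For Herc6 counts and TPM went opposite ways: it had 1422 and 1087 expected counts but 27.2 and 28.5 TPM, with an abundance-weighted length of 3744 and 3236 bases. Of the 13 calls, 4 were also made in the older tables in the same direction, those of Cmpk2, Oasl2, Stat2 and Ifih1. Samhd1 lost its call with DESeq2 size factors (log2 ratio 0.03) and with total counts, Parp14 lost it with total counts (0.04), and Herc6 (-0.017), Trim30a (0.0025) and Rtp4 (-0.11, little changed in size) lost it once the trend with GC content was removed. Other members gained a lower call: Ifi27l2a, Ifi35, Ifit2 and Sp100 with DESeq2 scaling and with total counts. Zbp1 gained it with total counts alone of these 2. Oas2 gained it in the older tables (log2 ratio -0.57). A higher call was gained by Oas1b when at least 50 counts were required. With the GC trend removed, Ifi27l2a (-0.093), Ifi35 (-0.17) and Zbp1 (-0.088) gained a lower call. Over all genes the median log2 ratio ran from -0.18 in the tenth of genes with the lowest GC content to 0.20 in the tenth with the highest, and for Cmpk2 it was 1.34 after that trend was removed.

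The exact binomial test allows for counting error alone. With edgeR's exact test at an assumed dispersion of 0.01, the only member called was Cmpk2, beside 10.8% of all genes. At an assumed dispersion of 0.04, 0 members were called, beside 0.707% of all genes, and the adjusted p of Cmpk2 was 0.114. These libraries hold no replicates from which a dispersion could be estimated.

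**Figure D3:**
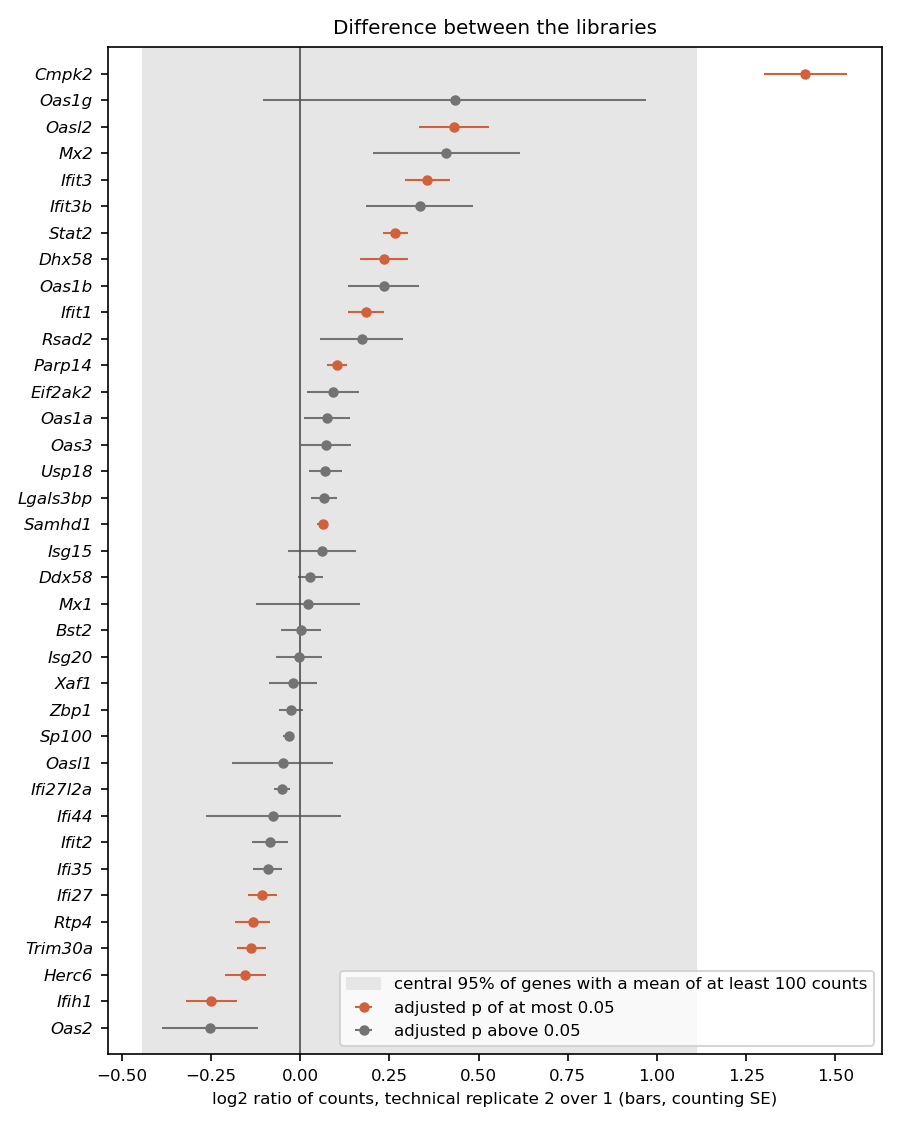
Log2 ratio of counts in technical replicate 2 over technical replicate 1 for the 37 genes, scaled by TMM, with bars of 1 counting SE. Orange points have an adjusted p of at most 0.05 in the exact binomial test. Grey shading spans -0.44 to 1.11, the central 95% of genes that averaged 100 counts or more, and Cmpk2 at 1.42 is the only gene outside it.

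Leading transcripts, those with the highest TPM of their gene, were the same in both libraries for all 31 genes with at least 2 annotated transcripts. That of Samhd1 held 76.4% and 76.3% of its gene's abundance. Sp100 was spread over 13 annotated transcripts, the leading one at 33.8% and 35.8%. The leading transcript of Cmpk2 held 75.9% and 86.5%. For Zbp1 it held 49.1% and 52.8%, and for Ifi35 60.2% and 59.6%.

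For 6 genes the leading transcript carried an annotation other than protein coding. It was a retained intron for Ifi27 (42.2% and 39.7%) and for Oas1g (52.7% and 88.1%). It was a target of nonsense-mediated decay for Mx1 (33.5% and 54.8%) and Oasl2 (42.6% and 48.9%). For Mx2 and Oas1b, genes known to carry inactivating alleles in many laboratory strains, it was annotated as a polymorphic pseudogene, with 90.7% and 94.8% for Mx2 and 73.8% and 73.3% for Oas1b. These 6 genes were chosen after their values were seen, and the alleles this mouse carried at Mx1, Mx2 and Oas1b were not examined. For Mx1 the shift between transcripts also moved the level: TPM was 7.90 and then 6.07, while its counts of 211 and 182 gave a log2 ratio of 0.02, and the abundance-weighted length was 1938 and 2558 bases.

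**Figure D4:**
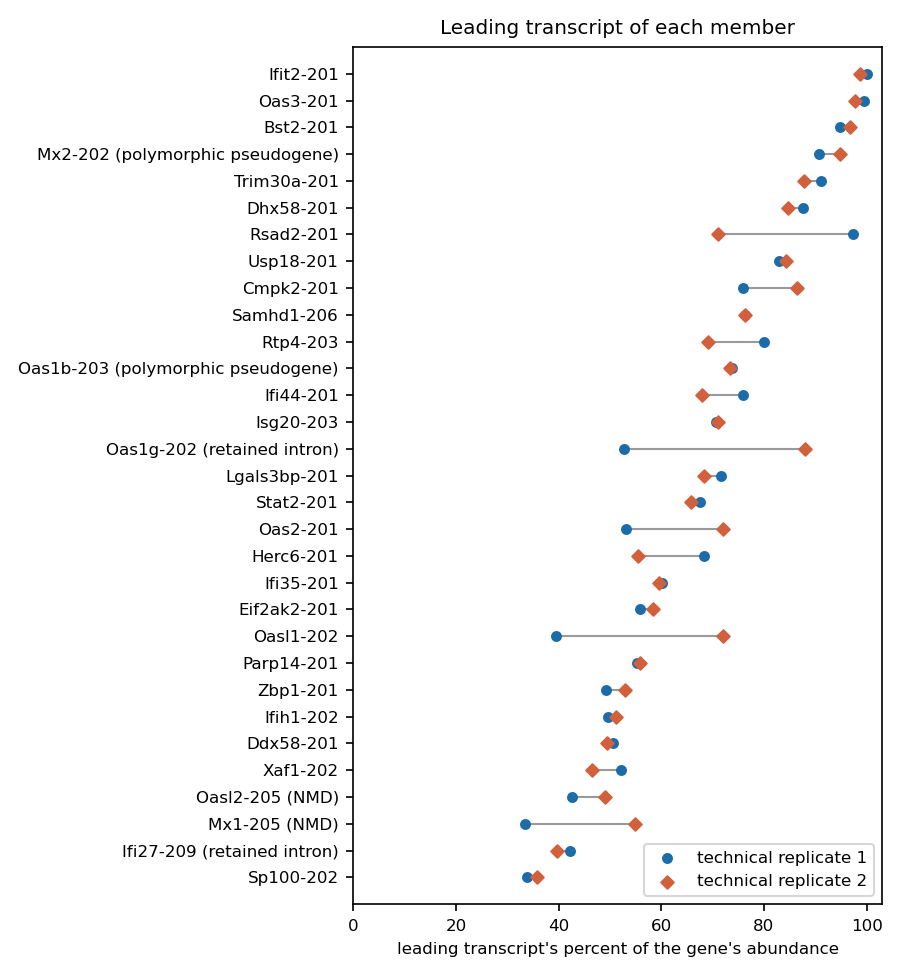
Percent of each gene's abundance taken by its leading transcript in technical replicate 1 (circles) and technical replicate 2 (diamonds) for the 31 genes with at least 2 annotated transcripts. Labels in brackets give annotations other than protein coding. Oas1g, Oasl1, Rsad2 and Mx1 show the widest gaps, all in genes under 10 TPM.

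Reads that fit several genes were divided by the estimation, so the share of each leading transcript's 50-base words that also occur in another gene's transcripts was counted. No such word was found for 17 of the 37 genes, Cmpk2, Samhd1, Ifi27, Zbp1, Stat2 and Bst2 among them. Over 5% was shared for 12 genes. Oas1a shared 57.6% with Oas1g, Ifit3 shared 51.2% with Ifit3b, and Ifit3b shared 44.5% with Ifit3, so the split of counts within these pairs carries uncertainty. The authors' posterior standard deviation was 0.588% and 0.476% of the count for Oas1a, beside 43.9% and 28.0% for Oas1g. It was 1.18% and 1.10% for Ifit3, and 6.56% and 6.24% for Ifit3b. Herc6 shared 23.8% with the gene model Gm45193. Ifi27l2a shared 0.483%, and its close copy Ifi27l2b was at 0.0700 and 0.240 TPM. Antisense gene models covered 10.7% of the words of Ifi35, 4.47% of Usp18 and 4.06% of Dhx58, and reads from a gene and its antisense partner cannot be told apart where strand was not used.

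The height of the top genes depended on the table read. In the older tables all 37 genes had a row, and the median ratio of newer expected counts to older counts was 2.06 over the members and 2.09 over 12209 genes. Ifi27l2a had 9065 and 7447 expected counts in the newer tables but 576 and 568 counts in the older ones, a ratio of 14.4 that 4.38% of genes reached. The ratio was 5.15 for Sp100, 4.27 for Samhd1 and 2.14 for Ifi27. Per base of length Ifi27l2a was the highest member in the newer tables and the 4th in the older tables, below Sp100, Ifi27 and Samhd1. Its share of the members' summed level was 7.24% from the older counts. Over all genes the median ratio was 1.97 at 300 to 1000 expected counts per kilobase, 4.85 at 3000 to 10000 and 30.6 above 10000. The tool behind the older counts is not given in the sources used here, and the cause of the difference was not tested.

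**Figure D5:**
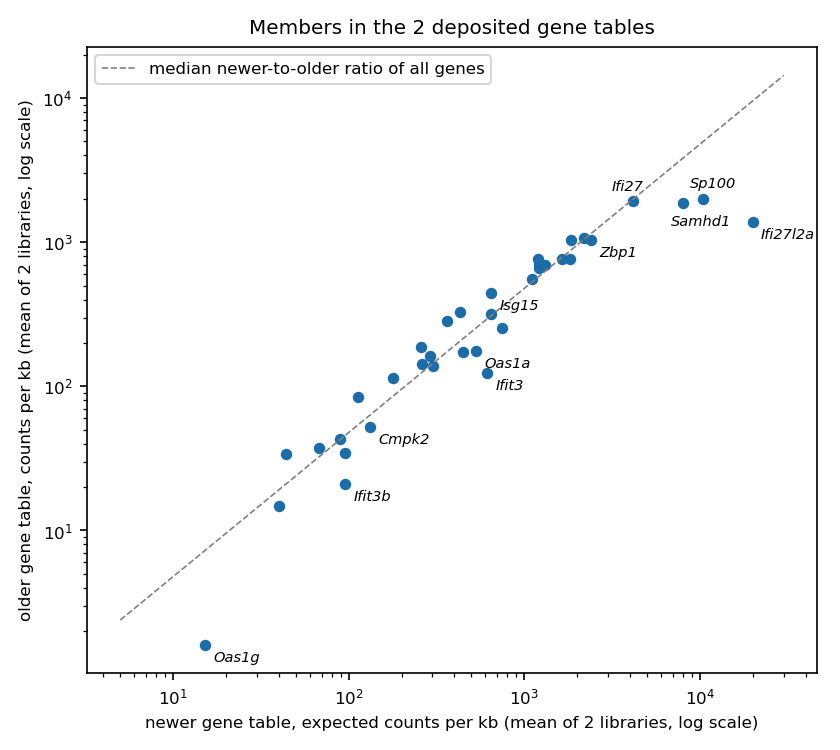
Counts per kilobase in the older gene tables (vertical axis) against expected counts per kilobase in the newer tables (horizontal axis), both on log scales and as means of 2 libraries, for the 37 genes. The dashed line is the median ratio of all genes, 2.09. Ifi27l2a, Sp100 and Samhd1 fall below the line at the high end, and Oas1g, Ifit3 and Ifit3b fall below it at lower levels.

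The pathway upstream was measured in gene lists, whose counts stand beside the same background: 34.7% of all tested genes were called (21.6% higher and 13.0% lower), and 23.4% of all genes and 47.5% of protein-coding genes were detected. Ligands came first: of 21 interferon ligand genes, 1 was detected, Ifng at 6.88 and 5.41 TPM, and 16 had 0 counts in both libraries. Ifnb1 was among those, and a count of 0 allows up to 0.303 and 0.358 TPM for it (3 counts, counting error only). Interferon messages in cells outside this preparation were not measured.

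Receptors and relay kinases were present. Of 4 type I and III receptor genes 3 were detected and Ifnlr1, the specific chain of the type III receptor, was at 0.0200 and 0 TPM. Ifnar1 had 156.5 and 178 TPM, Il10rb had 99.9 and 133 TPM, and Ifnar2 had 58.7 and 118 TPM. All 3 were called higher in technical replicate 2 by the exact binomial test, beside 21.6% of all genes tested, as were both interferon-gamma receptor chains, Ifngr1 (340 and 378 TPM) and Ifngr2 (14.1 and 25.8 TPM). Irf9 (191 and 195 TPM) stood above its partner Stat2, and Jak1 had 260 and 498 TPM. Jak1, Tyk2 and Stat2 were called higher, while Irf9 and Jak2 were not called.

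All 9 interferon regulatory factors were detected, led by Irf1 (352 and 359 TPM), Irf3 (205 and 206 TPM), Irf9 and Irf2 (160 and 146 TPM), with 5 called higher and 1 lower (34.7% of all tested genes were called). Of 10 further sensors and adaptors 8 were detected, led by Tmem173, or STING (489 and 502 TPM), with 3 called higher and 1 lower. All 5 feedback genes were detected, with 2 called higher and 2 lower. Those higher were Socs1 (6.98 and 16.9 TPM) and Socs3 (41.3 and 91.7 TPM), inhibitors of Jak kinases, with log2 ratios of 1.28 and 1.17. Of 13 close copies of the members 7 were detected and 1 was called, Ifit1bl1 (88.2 and 95.1 TPM), which was higher than any IFIT member. Of 41 genes of other interferon-stimulated families 33 were detected, with 6 called higher and 7 lower, and the immunoproteasome subunit Psmb8 led them at 1177 and 1164 TPM.

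Markers of other cell types were also read. Of 8 plasmacytoid dendritic cell markers 5 were detected, with a summed level of 182 and 190 TPM of which Bst2 was most, while the defining marker Siglech was at 0.310 and 0.0800 TPM. Of 8 monocyte or macrophage markers 5 were detected and none reached a mean of 10 TPM, with sums of 36.2 and 27.6 TPM. Conventional dendritic cell markers summed to 2.14 and 1.79 TPM. Neutrophil markers summed to 0.270 and 0 TPM, with 4 of 6 at 0 in both libraries. B cell markers summed to 41.6 and 41.2 TPM. Erythroid markers were higher, at 196 and 231 TPM summed, with 4 of 6 at a mean of 10 TPM or more. What these cells added to the levels of the 37 genes was not tested.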

How the data were processed

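Each library had a gene and a transcript table on mm10 with GENCODE M21, and a gene table on GENCODE M4. Expected counts, as deposited, divide reads that fit several genes and need not be whole, and the TPM and FPKM values deposited by the authors are scaled for length and depth. Posterior mean counts with their standard deviations, posterior mean TPM as a signal with its credibility bounds, and each transcript's percent of its gene were also deposited, per the file headers. The older tables hold whole counts deposited by the authors. The aligner, the counters and their versions are not given in the sources used here. Rows that named no gene (26345 of 81881 rows, 0.307% and 0.242% of counts) stayed out of library sizes and tests.

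Expected counts were rounded to whole numbers. With 1 library on each side, edgeR's quasi-likelihood test had no residual degrees of freedom and could not be fitted, so a two-sided exact binomial test (scipy 1.17.1) was run on genes with at least 10 counts in total. Library sizes were scaled by TMM (edgeR 4.0.16) and p-values adjusted by Benjamini-Hochberg over all tested genes. Alternatives were DESeq2 1.42.0 size factors, total counts, other filters on low counts, posterior mean counts, the older tables, FPKM, and edgeR's exact test with assumed dispersions of 0.01 and 0.04. Removal of a local trend over 201 genes of nearest GC content, and Ifi27l2a's share in the older counts, were added after seeing the data. The test script was checked on simulated counts. All 37 members could be named, in other lists each detected gene of up to 6 or the 4 highest, and other named genes were chosen after their values were seen. Members and lists were chosen with earlier results of these data known. Sequences are from RefSeq on GRCm38.p6, and shared words of 50 bases were searched in 141767 GENCODE M21 transcripts.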

Additional observations from a re-analysis of the deposited data

How the results depend on the processing

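No paired analysis was possible because the labels give 1 group, so that replicate numbers pair no samples. The median level was 31.3 in FPKM in place of 47.7 TPM. Ifi27l2a's share of the summed level was 7.24% from older counts per base. The members called lower numbered 9 under the size factors of DESeq2 and 10 with total counts, against 5. The older tables gave 3 members higher, 2 lower and 3116 calls over all genes, against 8, 5 and 5736. An assumed dispersion of 0.01 gave 1 higher, 0 lower and 1784 calls over all genes, and 0.04 gave 0, 0 and 117. The cause of these shifts was not tested, and neither was the part played by the smaller number of genes and counts in the older tables. The settings with an assumed dispersion also used another test, edgeR's exact test. Among the 13 called members, log2 ratios turned direction for Ifi27 (0.013) and Parp14 (-0.021) in the older tables, for Samhd1 (-0.0010) with total counts and for Trim30a (0.0025) with the GC trend removed, and none of the turned values was called. Ratios of some uncalled members also changed sign, Ifit3b from 0.33 to -0.026 and Ifi27l2a from -0.050 to 0.093 in the older tables among them. Leaving out each library in turn, 36 to 37 genes were at 1 TPM or more, the median was 41.8 to 51.0 TPM and Ifi27l2a's share was 29.7% to 30.6%. Cmpk2, Stat2, Oasl2 and Ifih1 kept their call and direction under DESeq2 size factors, total counts, the older tables, posterior mean counts and the removed GC trend, and lost it at an assumed dispersion of 0.04. Oas1g had too few counts (13.4 and 14.8) for its ratio or its place in the order to be read closely.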

Other observations

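Some receptor, relay and feedback genes of the pathway had larger ratios between the technical libraries than the other members beside Cmpk2. By the exact binomial test with Benjamini-Hochberg adjustment, the log2 ratio of technical replicate 2 over 1 was 0.98 ± 0.04 (counting SE) for Ifnar2 (adjusted p = 5.61e-114), 0.91 ± 0.09 for Ifngr2 (4.31e-22), 1.17 ± 0.05 for Socs3 (3.92e-138) and 1.28 ± 0.11 for Socs1 (3.12e-34), beside 1.42 ± 0.12 for Cmpk2. Jak1 had a log2 ratio of 0.89 ± 0.02. These genes were picked after their values were seen, and their difference from other genes was not tested.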
